A study of Mus musculus with 12 samples.

Results

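The growth hormone and insulin-like growth factor (IGF) axis was followed through 9 genes in the nascent RNA of mouse liver. They were taken by name from the 21490 gene symbols of the table, namely the receptor Ghr, the transcription factors Stat5a and Stat5b, the feedback inhibitors Cish and Socs2, and the secreted Igf1, Igfals, Igfbp2 and Igfbp4. All 9 were present. The study looked for daily rhythms of transcription in livers of male wild-type C57BL/6 mice, 3 to 6 months old, that had been kept for 2 weeks or more in cycles of 12 hr of light and 12 hr of darkness. Tissue was collected every 4 hr from ZT0 to ZT20 (zeitgeber time, ZT, is 0 when the lights go on). Each of the 6 time points is represented by 2 libraries, numbered replicate 1 and replicate 2. No animal was treated, so time points were set against each other and none served as a control. The measurement was Nascent-Seq, the sequencing of RNA that is still attached to chromatin and so still being made. The libraries are described as independent samples, but the number of livers behind each is not given in the sources used here, so p-values measure the spread between these samples only.

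Growth hormone reaches the liver from the pituitary and binds its receptor on hepatocytes, which activates the kinase Jak2 and, through it, the transcription factors of the STAT5 family. STAT5 enters the nucleus and drives genes that include Igf1, the main circulating growth factor, Igfals, which holds that factor in a stable complex in blood, and Cish and Socs2, which switch the receptor signal off again. Male rodents are known to release growth hormone in pulses, and STAT5 activity in their livers rises and falls with them. Binding proteins such as Igfbp2 and Igfbp4 hold the growth factor and limit its access to its receptor.

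The signal is given in reads per base pair (rpbp) of exon, scaled by the authors to the same number of mapped reads in every library, so levels can be compared between genes per unit of length. The sum of the signal over all symbols differed by at most 1.36-fold between libraries. Mapped reads per library are listed in the study's methods but did not enter these calculations, and no counting error is given for single values. The ZT8 and ZT20 libraries were each run on 2 sequencing lanes, and those of the other time points on 1. Of the marker genes for the tissue, those of hepatocytes summed to between 632 and 1959 rpbp, against 18.1 to 64.8 for Kupffer cells, 12.6 to 25.7 for endothelial cells, 9.6 to 16.3 for stellate cells, 1.0 to 2.5 for bile duct cells and 2.4 to 8.7 for lymphocytes. The bile duct keratin Krt19 did not exceed 0.3 rpbp and the T cell gene Cd3e 0.4. In bulk tissue, fewer cells of a type and less RNA per cell cannot be told apart. The 4 Y-linked genes Jarid1d, Uty, Ddx3y and Eif2s3y were at 4.0 rpbp or more in every library.

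Over the 12 libraries, Igfbp4 had the highest mean level (53.5 ± 20.04 rpbp, SD, n = 12 libraries), followed by Ghr (44.4 ± 10.1) and Igf1 (35.9 ± 28.2). Ghr lay above 98.8% of all symbols in the table and Igf1 above 98.4%. Igfbp2 (9.34 ± 9.15 rpbp), Igfals (7.62 ± 3.52) and Stat5b (7.48 ± 2.19) came next, and their order was not stable, since Igfbp2 was above Igfals in 6 of 12 libraries and Igfals was above Stat5b in 5 of 12. Igfbp4 was above Ghr in 7 of 12 libraries, which is also within their spread. Cish averaged 4.28 ± 5.79 rpbp and Stat5a 3.32 ± 0.578, with Cish the higher in 3 of 12 libraries. Socs2 was the lowest at 0.492 ± 0.793 rpbp, below Stat5a in 11 of 12 libraries. A symbol entered the tests only if some library gave it more than 6 rpbp. That left 6284 symbols and 7 of the 9 members, because Stat5a reached 4.2 rpbp at most and Socs2 2.9.

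**Figure D1:**
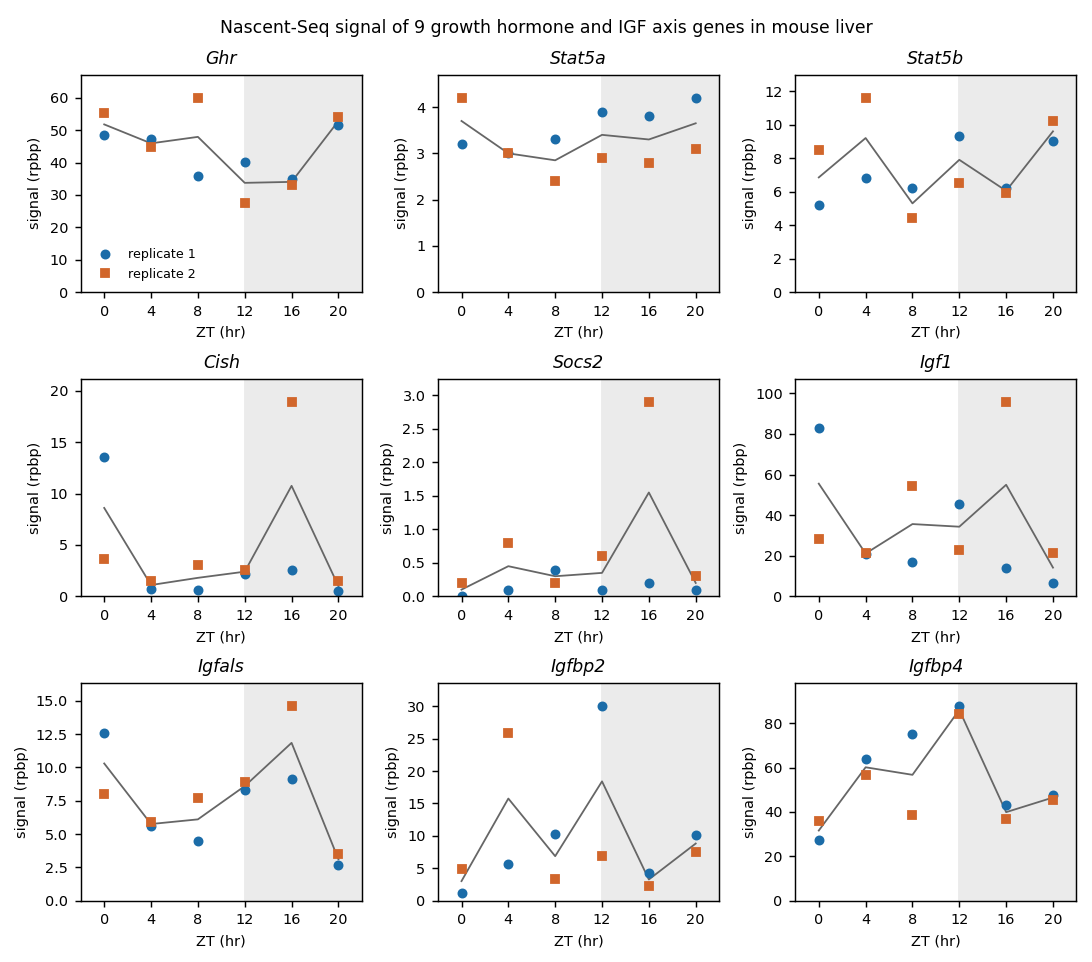
Nascent RNA signal (rpbp, vertical axis) of the 9 genes at each zeitgeber time (ZT, hr, horizontal axis), with circles for replicate 1, squares for replicate 2, a line through the mean of both, and shading for darkness. Cish and Igf1 were highest in ZT16 replicate 2 (18.9 and 95.7 rpbp) and ZT0 replicate 1 (13.6 and 82.8 rpbp), while the other library of each of these time points was far lower.

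Ghr, which encodes the receptor, lies on the minus strand at chr15:3267760-3533230 (mm9) and was the steadiest of the abundant members. It gave 48.4 and 55.2 rpbp at ZT0, 47.2 and 44.7 at ZT4, 35.9 and 60.0 at ZT8, 40.1 and 27.4 at ZT12, 34.9 and 33.2 at ZT16, and 51.7 and 54.0 at ZT20. Both libraries of ZT0 and of ZT20 were above both of ZT12 and of ZT16, and the only wide gap between replicates was at ZT8 and, less so, at ZT12. The highest value was 2.19 times the lowest. The share of its variance in a 24-hr cosine (F24) was 0.436 with a peak at 0.861 hr, just short of the limit for a rhythm (0.45), and its one-sided permutation p was 0.0819. Without ZT8 replicate 2, F24 was 0.780 (permutation p = 0.00536), the peak moved to 23.5 hr, and Ghr was called rhythmic. That library was rich in signal from genes of low GC content. The median log2 deviation of genes with about the GC content of Ghr (42.0% of its exon bases) was 0.40 there, and between −0.28 and 0.16 in the other 11 libraries. Across the 12 libraries the log2 level of Ghr had a Pearson r of 0.68 with this deviation, given as a description.

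The 2 STAT5 genes lie next to each other on chromosome 11, Stat5b on the minus strand at chr11:100642045-100711867 and Stat5a on the plus strand at chr11:100720717-100746483, with 8849 bp between them. Stat5b gave 5.2 and 8.5 rpbp at ZT0, 6.8 and 11.6 at ZT4, 6.2 and 4.4 at ZT8, 9.3 and 6.5 at ZT12, 6.2 and 5.9 at ZT16, and 9.0 and 10.2 at ZT20. Both ZT8 libraries were below both ZT20 libraries, most other time points overlapped, and its F24 was 0.103 (permutation p = 0.602). Stat5a stayed between 2.4 rpbp (ZT8 replicate 2) and 4.2 rpbp (ZT0 replicate 2, and ZT20 replicate 1) and was not tested. A second row of the table, spelled Stat5A, overlaps Stat5a and gave 1.5 to 3.4 rpbp, so how reads were split between both rows is uncertain. The transcript AK088966 lies within the span of Stat5b at chr11:100682022-100684248 and gave 13.1 to 30.2 rpbp, above Stat5b in mean level (19.3 rpbp). The table counts without strand. Stat3, the neighbouring STAT gene 1640 bp beyond Stat5a, ranged from 5.5 to 19.9 rpbp with its highest value in ZT16 replicate 2, and was called by none of the tests (F24 0.367, permutation p = 0.124).

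Cish and Socs2 encode inhibitors that STAT5 itself induces and that act back on the receptor. Cish lies on the plus strand at chr9:107199020-107204292. It gave 13.6 and 3.6 rpbp at ZT0, 0.7 and 1.5 at ZT4, 0.6 and 3.0 at ZT8, 2.2 and 2.6 at ZT12, 2.6 and 18.9 at ZT16, and 0.5 and 1.5 at ZT20. The 2 highest libraries came from different time points, and in each the other replicate was lower by 3.78-fold at ZT0 and by 7.27-fold at ZT16. From lowest to highest the range was 37.8-fold. Only these 2 libraries carried Cish past the 6 rpbp filter. Socs2 lies on the minus strand at chr10:94874676-94879455. It was at 2.9 rpbp in ZT16 replicate 2 and at 0.8 or below in the other 11 libraries, with 0 listed for ZT0 replicate 1, so it was high in only 1 of the 2 libraries in which Cish was high. The transcript AK017586, which starts 553 bp from Socs2 at chr10:94880009-94891274, followed the same course, with 2.3 rpbp in ZT16 replicate 2 and 0.5 or below in the other 11. Another transcript, AK033206, overlaps Socs2 and stayed at 0.5 rpbp or below.

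The promoters of Cish and Igfals are shown because both genes moved together in these libraries, as described further on, and because they alone among the members held a STAT5-type motif. RefSeq promoters (GRCm38.p6, 250 bases before to 50 after an annotated start) matched 8 of the 9 members with 14 promoters in all. Socs2 was not among them. The motif searched was TTCNNNGAA, which reads the same on both strands, and it was found in 8.3% of the 32851 promoters in the table, with 2 or more matches in 0.457%. Cish had 2 matches, starting at base 251 and base 262 of 300. Of the 3 annotated promoters of Igfals, the most upstream held 1 match at base 15 and the next held 1 at base 193. The promoters of Ghr, Stat5a, Stat5b, Igf1, Igfbp2 and Igfbp4 held none. The E-box CACGTG, which the clock proteins CLK and BMAL1 can bind, was in 7.15% of all promoters and, among the members, in 1 promoter of Igfbp2. A match is a run of letters and not evidence of binding. The sequences run 5′ to 3′ on the plus strand, with the STAT5-type motif in capitals.
Cish, chr9:107296409-107296708: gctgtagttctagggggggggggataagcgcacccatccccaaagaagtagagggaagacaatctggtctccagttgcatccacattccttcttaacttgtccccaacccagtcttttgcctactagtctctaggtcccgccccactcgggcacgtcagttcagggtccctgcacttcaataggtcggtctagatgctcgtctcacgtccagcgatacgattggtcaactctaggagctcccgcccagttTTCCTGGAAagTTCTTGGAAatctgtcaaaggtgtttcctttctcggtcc
Igfals, chr17:24877594-24877893: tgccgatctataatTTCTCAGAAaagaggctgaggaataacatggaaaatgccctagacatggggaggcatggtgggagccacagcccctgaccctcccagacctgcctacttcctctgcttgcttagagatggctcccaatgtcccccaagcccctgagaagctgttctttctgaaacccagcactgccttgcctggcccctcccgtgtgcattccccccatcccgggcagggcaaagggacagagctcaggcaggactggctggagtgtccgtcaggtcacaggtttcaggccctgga
Igfals, chr17:24877981-24878280: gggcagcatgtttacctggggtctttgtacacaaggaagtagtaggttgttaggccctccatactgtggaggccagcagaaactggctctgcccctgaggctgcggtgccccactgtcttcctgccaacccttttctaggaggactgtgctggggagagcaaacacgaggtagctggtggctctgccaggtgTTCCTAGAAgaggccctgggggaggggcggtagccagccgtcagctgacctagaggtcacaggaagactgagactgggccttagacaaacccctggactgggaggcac

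Igf1, the growth factor itself, lies on the plus strand at chr10:87321912-87394538. It gave 82.8 and 28.2 rpbp at ZT0, 20.7 and 21.5 at ZT4, 16.8 and 54.4 at ZT8, 45.6 and 23.0 at ZT12, 14.2 and 95.7 at ZT16, and 6.8 and 21.5 at ZT20. The replicates agreed within 1.04-fold at ZT4 and differed by 6.74-fold at ZT16, where only 0.398% of the 6284 tested symbols had a larger log2 difference. The range was 14.1-fold, and the share of its log2 variance that lay between time points was 36.8%, where 45.5% would come from values in random order. F24 was 0.0119 (permutation p = 0.938). ZT8 replicate 2, next in order of Igf1 signal, also carried a median log2 deviation of 0.53 among genes with the GC content of Igf1 (40.8%). In the other libraries this deviation lay between −0.35 and 0.23, and it was negative in ZT0 replicate 1 (−0.14) and in ZT16 replicate 2 (−0.23), the libraries with the most Igf1 signal.

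Igfals, the acid labile subunit of the circulating complex, lies on the plus strand at chr17:25015715-25018953. It gave 12.6 and 8.0 rpbp at ZT0, 5.6 and 5.9 at ZT4, 4.5 and 7.7 at ZT8, 8.3 and 8.9 at ZT12, 9.1 and 14.6 at ZT16, and 2.7 and 3.5 at ZT20. Both libraries of ZT20 were below the other 10, and ZT16 had the highest mean (11.9 ± 3.89 rpbp, SD, n = 2) against 3.1 ± 0.566 at ZT20. Igfals was the only member for which the moderated F-test of limma over the 6 time points passed (Benjamini-Hochberg adjusted p = 0.0435). Across all tested symbols, 7.65% passed this test (481 of 6284), and among the members 1 of 7. The call was lost in 9 of the 12 fits that left out 1 library, with adjusted p up to 0.142 without ZT20 replicate 1, and it held only without ZT8 replicate 1, ZT8 replicate 2 or ZT16 replicate 1. It was also lost with libraries rescaled (0.0609) and with the GC trend removed (0.180). The shape was not that of a day-long wave, since F24 was 0.0752 (permutation p = 0.7). The 3 tested symbols whose log2 levels were most like those of Igfals over the 12 libraries were Nubp2 (Pearson r = 0.91), Sat1 (0.88) and Pex26 (0.88). Nubp2 and Sat1 averaged 5.2 and 4.6 rpbp and passed the 6 rpbp filter only through their highest libraries, so their r is a description. Nubp2 is the next gene on the chromosome, on the opposite strand at chr17:25019562-25023273, 608 bp past the end of Igfals, and ran from 3.4 rpbp in ZT20 replicate 1 to 8.2 in ZT16 replicate 2.

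Igfbp2 lies on the plus strand at chr1:72871077-72899045. It gave 1.2 and 4.8 rpbp at ZT0, 5.7 and 25.8 at ZT4, 10.3 and 3.4 at ZT8, 30.0 and 6.8 at ZT12, 4.3 and 2.2 at ZT16, and 10.1 and 7.5 at ZT20. The 2 highest libraries were ZT12 replicate 1 and ZT4 replicate 2, while ZT0 replicate 1 and ZT16 replicate 2, which were highest for Igf1, were the 2 lowest. Its range was 25.0-fold and its F24 0.109 (permutation p = 0.615). Igfbp5, the binding protein gene 5593 bp away, stayed between 0.4 and 1.9 rpbp.

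Igfbp4, on the plus strand at chr11:98902574-98913957, gave 27.2 and 36.0 rpbp at ZT0, 63.7 and 56.6 at ZT4, 75.0 and 38.5 at ZT8, 87.7 and 84.4 at ZT12, 43.2 and 36.6 at ZT16, and 47.8 and 45.2 at ZT20. Both ZT12 libraries were above the other 10, and the replicates agreed within 1.32-fold at every time point but ZT8, where they differed by 1.95-fold. F24 was 0.474 with a peak at 10.1 hr, over the limit of 0.45, but the permutation p was 0.0633, so no rhythm was called. The limma F-test over time points gave an adjusted p of 0.0695. Without ZT8 replicate 2, F24 was 0.748 (permutation p = 0.00659) and the adjusted p over time points 0.0262, so that both tests called it. Without ZT8 replicate 1 the F-test also called it (adjusted p = 0.0253), while the rhythm test did not (F24 0.418, permutation p = 0.12). In ZT8 replicate 2 the median log2 deviation of genes with about the GC content of Igfbp4 (58.1%) was −0.45, the lowest of the 12. In replicate 1 alone F24 was 0.779 (exact permutation p = 0.15), and in replicate 2 alone it was 0.258 (exact permutation p = 0.617).

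Compared with all tested symbols, no member was called rhythmic (0 of 7), against a share of 15.2% of the 6284 symbols (956) under the study's rule of an unadjusted permutation p below 0.05, F24 above 0.45 and a highest value above 1.5 times the lowest. With the permutation p adjusted over all tested symbols, 0.716% of symbols (45) and again 0 members passed. Ghr and Igfbp4 came closest, with fitted peaks at 0.861 and 10.1 hr. Both were called after removal of the trend with GC content, when F24 was 0.595 for Ghr (permutation p = 0.00955, peak 23.4 hr) and 0.576 for Igfbp4 (permutation p = 0.0265, peak 9.74 hr). Ghr was also called with the lanes as a block (F24 0.541, permutation p = 0.0379) and Igfbp4 with libraries rescaled to equal medians (F24 0.537, permutation p = 0.0358). Calls over all tested symbols also rose in these settings. They were 1108 of 6149 with the GC trend removed, 1217 of 6284 with lanes as a block and 979 of 6284 rescaled. The F24 of the other 5 tested members lay between 0.0119 and 0.109.

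**Figure D2:**
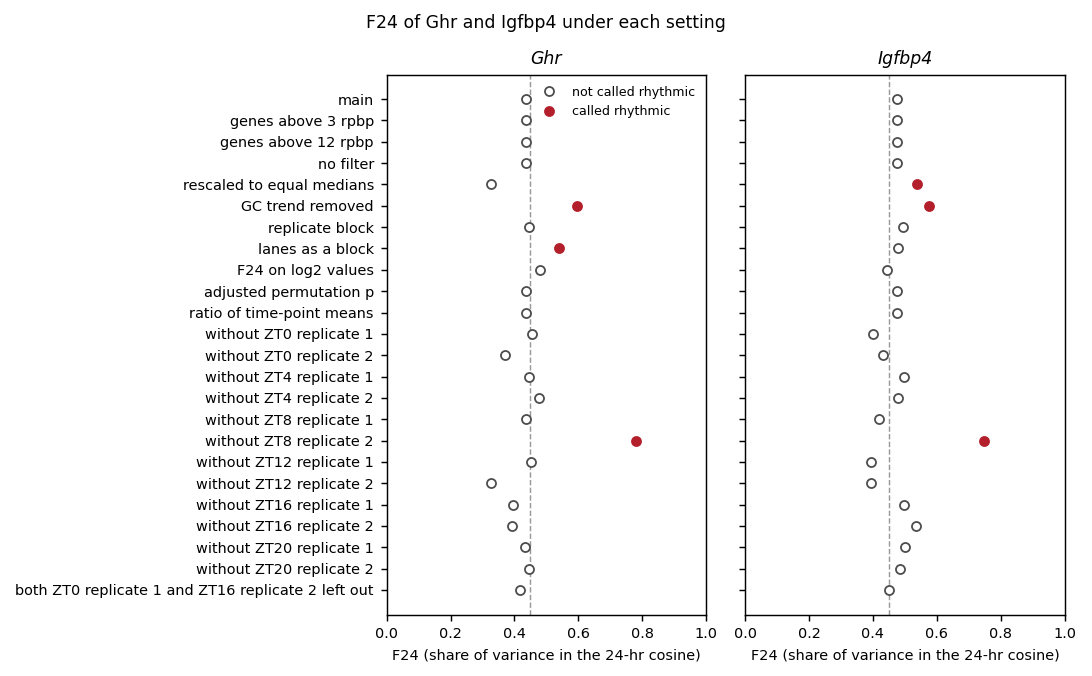
F24, the share of the variance in the 24-hr cosine (horizontal axis), of Ghr and Igfbp4 under each way of treating the data (vertical axis), with filled points where all 3 criteria for a rhythm were met and a dashed line at 0.45. Leaving out ZT8 replicate 2 raised F24 from 0.436 to 0.780 for Ghr and from 0.474 to 0.748 for Igfbp4, and leaving out any other single library called neither.

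The middle of the light phase (ZT4 and ZT8, 4 libraries) was then set against the middle of the dark phase (ZT16 and ZT20, 4 libraries), a contrast in which both sides hold 1 time point of 1 lane and 1 of 2 lanes. None of the 7 members passed the adjusted limma test, nor did any at an unadjusted p below 0.05, against 2.88% of all tested symbols adjusted (181) and 18.5% unadjusted (1162). The intervals were wide. Cish differed by −0.83 on the log2(rpbp + 1) scale (95% interval −2.03 to 0.38), from 1.45 ± 1.11 rpbp in mid-light to 5.88 ± 8.73 in mid-dark (SD, n = 4 libraries each). Igf1 differed by 0.23 (−1.16 to 1.61) and Igfbp2 by 0.62 (−0.63 to 1.87). Igfbp4 was nearest to a difference at 0.39 (−0.05 to 0.84), from 58.5 ± 15.3 to 43.2 ± 4.79 rpbp (n = 4 libraries each), with a two-sided exact permutation p of 0.114 where 0.0286 is the smallest the design allows. Ghr (0.12, −0.29 to 0.53), Stat5b (−0.14, −0.60 to 0.33) and Igfals (−0.07, −0.53 to 0.40) had intervals that exclude a change of 1 log2 unit, as did that of Igfbp4. Of the 2 untested members, Stat5a gave an exact permutation p of 0.229 and Socs2 of 0.83.

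For 6 of the 7 tested members the difference had opposite signs in the 2 pairs of time points. The share of all tested symbols with opposite signs was not computed, so this count only describes the members. Cish was lower at ZT4 than at ZT16 by a log2 difference of −2.04 and higher at ZT8 than at ZT20 by 0.39, Igf1 gave −0.80 and 1.24, and Igfals −0.90 and 0.76. Stat5b went the other way with 0.49 and −0.76, as did Igfbp2 (1.7 and −0.46) and Ghr (0.42 and −0.18). Igfbp4 alone was positive in both (0.58 and 0.21). A test of the difference between the pairs called 0.923% of all tested symbols (58) and none of the members at the adjusted threshold. Igfals was closest (adjusted p = 0.107), and 3 of the 7 members (Stat5b, Cish and Igfals) were below an unadjusted 0.05, as were 13.6% of all tested symbols (852). Leaving out ZT16 replicate 1 changed the calls of Igfals and Cish in this test, but leaves ZT16 with replicate 2 alone. That library (Cish 18.9 rpbp) is 1 of the 2 that carried Cish past the 6 rpbp filter, so nothing is drawn from that fit. These pairs differ in both lane number and hour, which cannot be told apart.

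**Figure D3:**
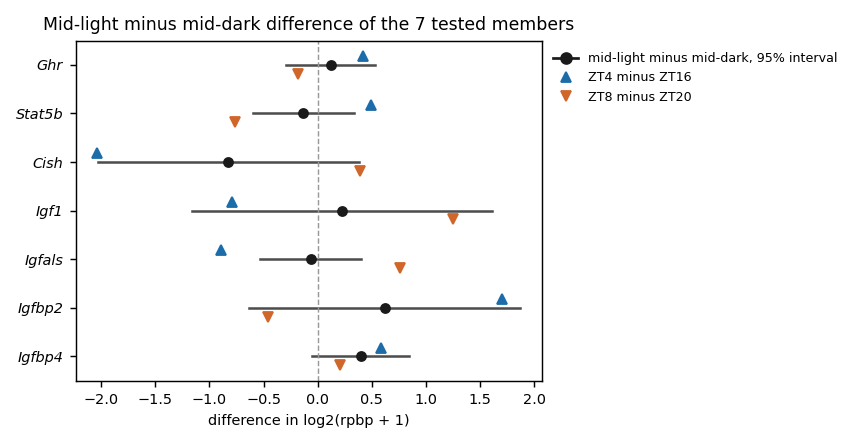
Difference in log2(rpbp + 1) (horizontal axis) between mid-light and mid-dark for the 7 tested members (vertical axis), as a circle with its 95% interval, with triangles for ZT4 minus ZT16 and for ZT8 minus ZT20. Every interval spans 0, and the triangles lie on opposite sides of 0 for all but Igfbp4.

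Igf1, Igfbp2 and Cish varied widely between the 2 libraries of a time point. The residual SD of log2(rpbp + 1) within time points was 1.13 for Igf1, 1.02 for Igfbp2 and 0.98 for Cish, against a median of 0.25 over all tested symbols. Those of Igf1, Igfbp2 and Cish were larger than in 99.4%, 99.1% and 98.9% of the tested symbols. Igfals (0.33), Stat5b (0.33), Igfbp4 (0.31) and Ghr (0.27) were nearer to the median. Only Igfals and Igfbp4 combined an ordinary residual SD with a high share of variance between time points (84.6% and 81.1%, against a median of 64.2% over the tested symbols).

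**Figure D4:**
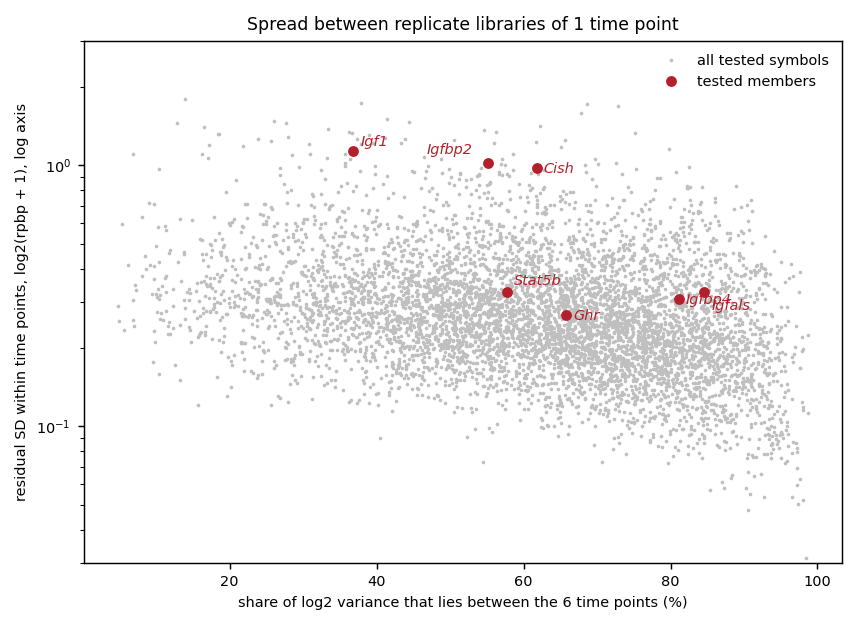
Residual SD of log2(rpbp + 1) between libraries of 1 time point (vertical axis, log scale) against the share of log2 variance that lies between the 6 time points (horizontal axis, %), for the 6284 tested symbols (grey) and the 7 tested members (red). Igf1, Igfbp2 and Cish lie at residual SDs of 0.98 to 1.13, above nearly all other symbols. Cish entered the tests only through ZT0 replicate 1 and ZT16 replicate 2, so its place is only a description.

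Cish, Igf1 and Igfals varied together across libraries. This was seen in the values first and tested afterwards, with Cish chosen as the reference after its values were seen. Cish passed the signal filter only through ZT0 replicate 1 (13.6 rpbp) and ZT16 replicate 2 (18.9 rpbp). These libraries were also the highest for Igf1 and Igfals. The p-values for relations with Cish, here and below, are drawn from the values that led to its choice. They are therefore a description and support no relation. Over the 12 libraries the log2 levels of Cish and Igf1 had a Pearson r of 0.85 (permutation p = 0.00026) and a Spearman rho of 0.83 (permutation p = 0.00118). For Cish and Igfals r was 0.87 (permutation p = 0.0003) and rho 0.86 (permutation p = 0.00072). Igf1 and Igfals had an r of 0.80 (permutation p = 0.00179) and a rho of 0.66 (permutation p = 0.0237), with limma adjusted p of 0.161 and 0.151 over all tested symbols. These are 3 of the 5 pairs above 0.70 among all 36 pairs of members, whose r ran from −0.66 (Cish and Igfbp2) to 0.87. The other 2 were Igfbp2 with Stat5b (r = 0.75) and with Igfbp4 (r = 0.75), neither past the adjusted threshold in limma.

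A limma fit with the level of Cish as covariate over the 6283 other tested symbols gave adjusted p = 0.023 for both Igf1 and Igfals, and 0.318% of the symbols (20) rose with Cish at the adjusted threshold. By r with Cish, Igfals ranked 9th and Igf1 17th among the 6283. Taken from the side of the other gene, the adjusted p for Cish was 0.104 with Igf1 and 0.0827 with Igfals as covariate, so the call held in 1 direction only. With the replicate number as a block the adjusted p for Igf1 was 0.0504, no longer called, and 9 symbols rose with Cish in place of 20. Within time points r was 0.92 for Igf1, with the same sign of replicate difference at 5 of 6 time points, and 0.96 for Igfals, at 6 of 6. In the 8 libraries of 1 lane r was 0.86 and 0.95, and in each replicate series alone (n = 6) it was 0.81 and 0.89 for Igf1 and 0.87 and 0.86 for Igfals. The 1-lane set held both libraries with the most Cish (ZT0 replicate 1 and ZT16 replicate 2), and each series held 1 of them. These r are therefore not independent of those libraries. The adjusted call was lost for both genes in the 1-lane libraries, and for Igfals also within time points.

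The relation leaned on the 2 libraries with the most Cish. Without ZT0 replicate 1 and ZT16 replicate 2, r was 0.64 for Igf1 and 0.81 for Igfals over the other 10 libraries, and the adjusted p was 0.9998 for both, with 0 symbols called to rise with Cish and 116 of 6283 at an unadjusted p below 0.05 in either direction. Leaving out ZT16 replicate 2 alone gave adjusted p = 0.529 and 0.471, and leaving out ZT0 replicate 1 alone gave 0.0749 and 0.0604. Both calls were also lost without ZT8 replicate 1 (adjusted p = 0.051 and 0.054), and that of Igfals without ZT20 replicate 1 (0.0502). The symbol with the highest r with Cish among the 6283 other tested symbols was Onecut1, which encodes a liver transcription factor known to respond to growth hormone. It stood in the list of signalling genes, but is described here because of its values. It gave 51.6 rpbp in ZT0 replicate 1 and 57.1 in ZT16 replicate 2 against 2.3 to 18.8 in the other 10 libraries, and its r with Cish was 0.93 (limma adjusted p = 0.00233). Its call was lost without ZT16 replicate 2 (adjusted p = 0.084), and with both libraries left out r was 0.75 (limma adjusted p = 0.9998). In these 2 libraries the 6 hepatocyte markers summed to 632 and 697 rpbp, the 2 lowest of the 12 (804 to 1959 in the others), and the median log2 deviation of all tested symbols was −0.09 and −0.20, also the 2 lowest. Summed markers of the other cell types lay within the range of the other 10 libraries, except those of stellate cells in ZT0 replicate 1 (9.6 against 10.3 to 16.3). The part of these shifts in the relation was not tested, and these libraries were the highest of the 12 for Cish, Igf1, Igfals and Onecut1.

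**Figure D5:**
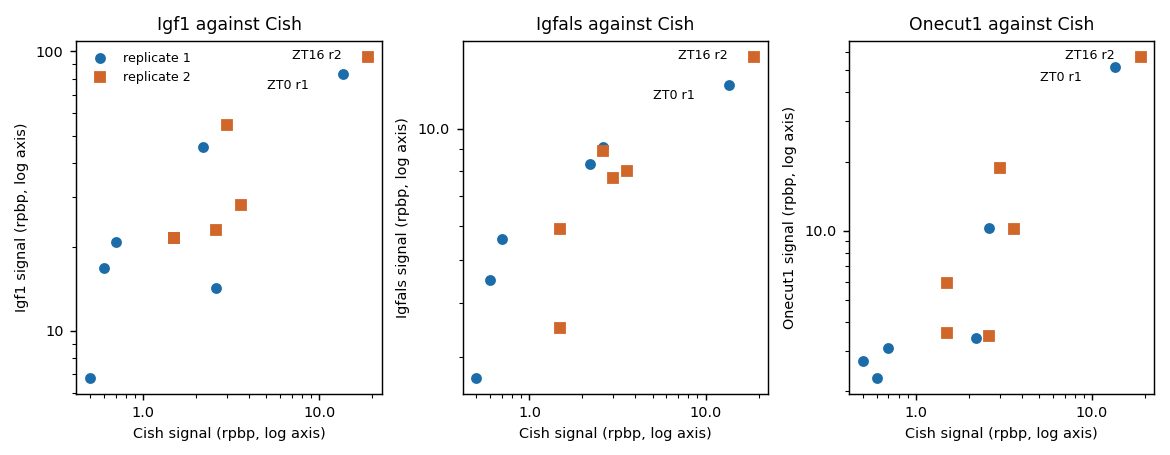
Signal (rpbp, log axis) of Igf1, Igfals and Onecut1 (vertical axes) against that of Cish (horizontal axis, log scale) in the 12 libraries, with circles for replicate 1 and squares for replicate 2. ZT0 replicate 1 and ZT16 replicate 2 stand at the upper right in all 3 panels. Over the other 10 libraries r, computed on log2(rpbp + 1), was 0.64 for Igf1, 0.81 for Igfals and 0.75 for Onecut1. None of these 3 relations was called in limma without the named libraries.

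Further genes of growth hormone signalling were read from a list of 18, all in the table, of which 12 were tested. Of these, 2 were called rhythmic and 2 passed the F-test over time points, against 15.2% and 7.65% of all tested symbols. None passed the mid-light against mid-dark test, against 2.88% of all tested symbols. Socs3, an inhibitor related to Socs2, peaked at 13.9 hr (F24 0.573, permutation p = 0.0205), ranged from 1.0 to 9.8 rpbp and passed the F-test (limma adjusted p = 0.0103). It averaged 3.6 rpbp and entered the tests only through its highest libraries, so these calls are a description and support no difference. Irs1, an adaptor of insulin and IGF receptors, ranged from 8.8 to 36.2 rpbp and passed the F-test (limma adjusted p = 0.0478). Jak2, the receptor's kinase, stayed between 2.0 and 4.1 rpbp and was not tested. By mean level Hnf4a, a main transcription factor of hepatocytes, was the highest (47.9 rpbp) and Socs1 the lowest (0.3 rpbp). The median mid-light minus mid-dark log2 difference of the 12 was −0.16, against 0.09 over all tested symbols, and their median F24 was 0.250 against 0.222.

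Of 14 other IGF genes (receptors, binding proteins and their proteases), 13 were in the table and 2 were tested. Of these 2, 1 was called rhythmic and 0 passed the F-test, against 15.2% and 7.65% of all tested symbols. Insr, the insulin receptor, was called rhythmic with a peak at 6.47 hr (F24 0.638, permutation p = 0.00835) and moved little, from 15.5 to 24.7 rpbp. It was also the highest of the list (18.7 rpbp on average). Igfbp1, a binding protein known to respond to insulin and fasting, ranged from 2.9 to 59.8 rpbp with its highest value in ZT12 replicate 1, and was called by none of the tests (F24 0.0668, permutation p = 0.777). Igfbp3, the main partner of Igf1 in blood, was low at 0.2 to 1.2 rpbp, as was the IGF receptor Igf1r at 0.3 to 0.7. Pappa2 and Stc1 were listed at 0 in all 12 libraries.

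Genes known to be higher in male liver under pulsed growth hormone were read from a list of 16, of which 13 were in the table and 11 tested. Among these, 4 were called rhythmic and 2 passed the F-test, against 15.2% and 7.65% of all tested symbols. In the mid-light against mid-dark test 1 passed, higher in mid-dark, against 2.88% of all tested symbols in either direction. Hsd3b5, a steroid dehydrogenase, peaked at 23.4 hr (F24 0.848, permutation p = 0.00041) and passed the F-test (limma adjusted p = 0.015). Selenbp2 peaked at 14.9 hr (F24 0.534, permutation p = 0.0124), and its signal differed by −2.69 log2 units between mid-light and mid-dark (limma adjusted p = 0.0218), from 0.8 rpbp in ZT8 replicate 1 to 99.2 in ZT16 replicate 2. It also passed the F-test (adjusted p = 0.0124). Elovl3, a fatty acid elongase, peaked at 20.9 hr (F24 0.482, permutation p = 0.021) and ran from 3.8 to 331.2 rpbp. Cyp2u1 peaked at 1.81 hr (F24 0.580, permutation p = 0.0176). Bcl6, a repressor that opposes STAT5 in male liver, ranged from 8.4 to 39.5 rpbp and was called by none of the tests (F24 0.0987, permutation p = 0.623). Cyp2d9 was the highest (90.3 rpbp on average) and Mup1 the lowest (0.192), where Mup1 belongs to a family of near-identical copies so its value is uncertain. The median mid-light minus mid-dark difference of the 11 was −0.25 on the log2 scale and their median F24 0.188.

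Of 15 genes known to be higher in female liver, 10 were in the table and 3 passed the filter. Of these 3, 1 was called rhythmic, 1 passed the F-test and 1 the mid-light against mid-dark test, in each case Acot3. The shares over all tested symbols were 15.2%, 7.65% and 2.88%. Acot3, an acyl-CoA thioesterase, was listed at 0 to 6.1 rpbp and averaged 1.4. It entered the tests only through its highest library, ZT8 replicate 2, in mid-light, so its calls in all 3 tests (peak at 7.51 hr, mid-light minus mid-dark log2 difference of 1.4) are a description and support no difference. Cyp2b9, a cytochrome P450, was the highest of the list by mean (14.7 rpbp) and ran from 0 to 79.2 rpbp, its highest value, in ZT8 replicate 2. Cyp3a44 was listed at 0 in every library. Set beside Cish, no gene of the 4 lists other than Onecut1 rose with it at the adjusted threshold. The next by r were the male-biased Cyp4a12a (0.67), Cyp7b1 (0.66) and C6 (0.66), with limma adjusted p of 0.207, 0.208 and 0.211. Of the other tested male-biased genes, Selenbp2 (0.50) and Hsd3b5 (0.08) were also positive. Cyp2d9 (−0.66), Bcl6 (−0.55), Cyp2u1 (−0.55), Gstp1 (−0.40), Slco1a1 (−0.36) and Elovl3 (−0.12) were negative, so the list as a whole did not follow Cish.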

How the data were processed

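Nascent RNA from mouse liver (12 libraries) was sequenced on a Genome Analyzer II. The submitters' processing notes name CASAVA 1.7, TopHat and mm9. The deposited signal is the coverage over merged exons in reads per base pair, without strand, scaled by the authors to an equal number of uniquely mapped reads and rounded to 1 decimal. It is not a count, so no count model was used. Mapped reads per library, which the methods list, did not enter the calculations. The authors' own F24, phase and p-value columns were not used. Blank lines (27919) were dropped.

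Tests covered symbols with more than 6 rpbp in some library. F24 was computed on linear values with 100000 permutations, and time points were compared with limma 3.58.1 (R 4.3.3) on log2(rpbp + 1) with Benjamini-Hochberg adjustment over all tested symbols, so fold changes of low genes are understated. For each member the mean log2 level of the 4 mid-light libraries was also compared with that of the 4 mid-dark libraries by exact permutation over 70 splits. Scripts were tested on simulated data. The correlation of Cish with other genes was chosen after seeing the data, so its p-values are a description. The members and gene lists were chosen with earlier results of these data known.

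Tested male-biased genes were named with their r with Cish. Of the lists, genes were otherwise named if called by any test, if highest or lowest by mean, or if they were Igfbp1, Igfbp3, Jak2, Stat3 or Bcl6, and all 9 members were named. A result that this rule would name is not reported here. For a called member the 3 tested symbols of highest r were named, and neighbours within 50 kb could be. Positions of genes and transcripts are mm9, counted from 1, with strand from GENCODE M1, and those of promoters are GRCm38.p6. Exon GC content was known for 6149 of 6284 tested symbols. Alternatives were thresholds of 3 and 12 rpbp or none, rescaled medians, GC trend removed in 20 bins, a pseudocount of 0.1, blocks by replicate or lane, lanes taken apart, other windows, cosine terms, and each library left out.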

Additional observations from a re-analysis of the deposited data

Results flagged for a closer look

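Socs2 in ZT16 replicate 2 (2.9 rpbp) lay apart from the other 3 mid-dark libraries (0.1 to 0.3 rpbp), with a gap of 0.868 of the whole log2 range, past Dixon's limit for 4 values. It was the only flag among 18 groups of 4 libraries (9 members, mid-light and mid-dark), and chance flags about 1 in 20 such groups. Socs2 did not pass the 6 rpbp filter. The neighbouring AK017586 was at 2.3 rpbp in the same library.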

How the results depend on the processing

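The count of rhythmic members was 1 with rescaled libraries (Igfbp4), 2 with the GC trend removed (Ghr and Igfbp4), 1 with lanes as a block (Ghr), and 0 to 2 with 1 library left out, and it was 0 in the other alternatives. The count of members passing the F-test over time points was 0 with no filter, with rescaled libraries, with 2-lane time points only, with 24-hr cosine terms and with ZT0 replicate 1 and ZT16 replicate 2 both left out, and 0 to 2 with 1 library left out. With the GC trend removed and with 1-lane time points only it was 1, but the member was Igfbp4 (adjusted p = 0.0286 and 0.0404) and not Igfals. No alternative called a member between mid-light and mid-dark. With 1 library left out, the member calls by lane number changed only without ZT16 replicate 1 (Cish and Igfals). That fit leaves ZT16 with 1 library, so nothing is drawn from it. Rhythmic symbols in the settings that called a member were 979 of 6284 rescaled, 1108 of 6149 with the GC trend removed and 1217 of 6284 with lanes as a block. The F-test called 399 of 6149 with the GC trend removed and 120 of 6284 with 1-lane time points only. Over all tested symbols, calls fell most from 956 rhythmic to 45 with adjusted p, and rose most to 2218 of 20756 with no filter, where the 12 rpbp filter left 511 of 2858. With 1 library left out they ran from 170 to 638 over time points (481 with all), 27 to 255 for mid-light against mid-dark (181) and 6 to 308 by lane number (58).

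The sign of the mid-light minus mid-dark difference, never past the threshold, reversed for Ghr with the GC trend removed (−0.062), for ZT8 against ZT20 only in Ghr (−0.18), Cish (0.39), Igfals (0.76) and Igfbp2 (−0.46), for ZT4 against ZT16 only in Stat5b (0.49) and Igf1 (−0.80), and for Igfals with both named libraries left out (0.090). With 1 library left out it ran from −0.062 to 0.30 for Ghr, −0.31 to 0.037 for Stat5b, −0.44 to 0.89 for Igf1 and −0.23 to 0.10 for Igfals.

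The correlation with Cish lost its adjusted call with both libraries left out (Igf1 0.64, Igfals 0.81, Onecut1 0.75), in 1-lane libraries (Igf1 0.86, Igfals 0.95) and, for Igfals, within time points (0.96). With 1 library left out the call was lost in 3 of 12 fits for Igf1, 4 of 12 for Igfals and 1 of 12 for Onecut1, and r ran from 0.79 to 0.88 for Igf1, 0.83 to 0.90 for Igfals and 0.90 to 0.96 for Onecut1. Symbols that rose with Cish, 20 in all, were 36 rescaled, 50 with the GC trend removed, 13 with a pseudocount of 0.1, 8 within time points, 6 in 1-lane libraries, 0 with both libraries left out and 0 to 27 with 1 left out.

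Deviations of same-numbered libraries correlated above 0.1 in 5 of 15 pairs of time points (median 0.073, from −0.12 to 0.32). This does not settle whether replicate numbers pair the samples, and the main tests did not use them. With the replicate number as a block, 0 members were rhythmic, 1 (Igfals) differed between time points, 0 differed between mid-light and mid-dark, the r of Cish with Igf1 was 0.84 (adjusted p = 0.0504, no longer called), 9 symbols rose with Cish, and 28 symbols were called by lane number. The causes of these shifts were not tested.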
